A study of Mus musculus with 6 samples.

Results

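The genes examined here encode proteins best known from nerve cells: 3 tweety family membrane proteins (Ttyh1, Ttyh2, Ttyh3), 5 collapsin response mediator proteins (Crmp1, Dpysl2, Dpysl3, Dpysl4, Dpysl5), the microtubule-stabilizing protein Map6 and the secreted esterase butyrylcholinesterase (Bche). They were chosen by name, with the measured difference between fetal and adult mammary cells already known, and were found on the arrays by matching each probe's transcript accession to RefSeq. All 10 genes had a probe, of 20660 genes matched in all, and they were read by 16 probes. RNA was measured in 3 biological replicates of E18.5 fetal mammary cells and 3 of adult basal mammary cells, each on its own one-color Agilent array, in which the brightness of a spot reports the amount of labeled RNA bound. Both populations came from the mammary glands of female C57Bl6J mice, without a transgene or treatment named in the labels. Fetal glands were taken at embryonic day 18.5 and their cells were sorted as CD31-CD45-Ter119-EpCAM++CD49f+, which removes endothelial and blood cells and retains strongly EpCAM-positive epithelium. Adult glands were taken at 8 to 12 weeks and the basal cells were sorted with the same negative antigens plus BP-1-, as EpCAM+CD49f+ cells. Adult glands were digested overnight and fetal glands for a much shorter time, so digestion, age and the sort gate cannot be told apart from the population. Values are quantile-normalized log2 signals, and differences are fetal minus adult basal. The share of probes with signal well above background lay between 76.4% and 83.3% per array, and 14 of the 16 probes, from 9 genes, passed a filter on low signal.

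Microtubules are polar tubes of tubulin that carry cargo along axons and give a growing process its shape, and accessory proteins decide where they grow, bundle or break down. The collapsin response mediator proteins are relatives of dihydropyrimidinase that bind tubulin and relay the repulsive signal of semaphorin 3 from neuropilin and plexin receptors to the cytoskeleton, under control of the kinases Cdk5 and Gsk3b. Tweety proteins are membrane proteins linked to chloride and volume-regulated anion currents, Map6 protects microtubules against cold and drugs, and butyrylcholinesterase hydrolyzes choline esters.

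RefSeq promoter windows, from 250 bases before to 50 bases after an annotated transcript start, were held for 6 of the 10 genes (Ttyh1, Ttyh2, Ttyh3, Dpysl5, Crmp1 and Bche). Dpysl2, Dpysl3, Dpysl4 and Map6 had no window. The windows of Bche and Ttyh1 are shown because these genes had signals far higher in fetal cells, and that of Dpysl5 because its probe went the other way. Capitals mark GGGCGG on either strand (CCGCCC in the lines), the core of the GC box, and sequences run 5′ to 3′ along the gene. On GRCm38.p6 they lie at chr3:73708366-73708665 on the minus strand (Bche), chr7:4119280-4119579 on the plus strand (Ttyh1) and chr5:30711314-30711613 on the plus strand (Dpysl5).
Bche: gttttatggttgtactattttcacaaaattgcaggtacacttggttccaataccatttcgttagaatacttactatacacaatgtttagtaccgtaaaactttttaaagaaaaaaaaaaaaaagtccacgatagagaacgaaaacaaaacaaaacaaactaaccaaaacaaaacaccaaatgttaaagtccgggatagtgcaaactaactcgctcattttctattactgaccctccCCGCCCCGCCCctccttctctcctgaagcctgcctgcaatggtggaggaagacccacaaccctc
Ttyh1: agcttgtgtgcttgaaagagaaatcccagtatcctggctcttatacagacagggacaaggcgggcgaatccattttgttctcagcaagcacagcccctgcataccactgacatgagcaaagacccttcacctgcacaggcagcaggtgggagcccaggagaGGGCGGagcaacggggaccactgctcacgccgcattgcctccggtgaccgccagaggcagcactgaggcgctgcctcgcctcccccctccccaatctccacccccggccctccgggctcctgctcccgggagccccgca
Dpysl5: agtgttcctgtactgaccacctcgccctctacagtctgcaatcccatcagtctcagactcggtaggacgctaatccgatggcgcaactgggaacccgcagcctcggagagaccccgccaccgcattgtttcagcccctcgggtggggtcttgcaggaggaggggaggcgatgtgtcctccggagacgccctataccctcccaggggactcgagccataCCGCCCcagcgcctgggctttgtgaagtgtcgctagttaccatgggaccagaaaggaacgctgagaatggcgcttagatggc

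The Bche window was AT-rich, with a GC content of 39.3% and 8 CpG dinucleotides, and held GGGCGG 2 times in an overlapping pair close to the transcript start. The Ttyh1 window had a GC content of 63.3%, 14 CpG dinucleotides and 1 GGGCGG, and the Dpysl5 window 61.0%, 19 CpG dinucleotides and 1 GGGCGG. Over all 32851 RefSeq windows of 300 bases the median GC content was 52.7% and the median number of CpG dinucleotides 7. GGGCGG, searched on both strands, occurred in 35.7% of them and in a window of each of the 6 genes. The TATA box letters TATAAA, found in 13.6% of all windows, were in none of the windows of the 6 genes, nor was TTCAGCACC, part of the REST silencer element and found in 0.371% of all windows. AACAAT, a core recognized by SOX factors, was found in 10.7% of all windows and, among the 6 genes, in that of Dpysl5 alone. These are matches of letters, and binding was not measured.

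The 10 genes divided between the populations. Bche, Ttyh1, Dpysl4 and Ttyh3 had higher signals in fetal cells, whereas Dpysl3, Dpysl2, Dpysl5 and 1 of the Map6 probes had higher signals in adult basal cells. Ttyh2 and the other Map6 probe overlapped between the populations, and Crmp1 was dim in both. Of the 14 probes tested, 6 passed Holm adjustment in limma (p no higher than 0.05, at least 2-fold) with the higher signal in fetal cells and 2 with the higher signal in adult basal cells, where 5.92% and 5.18% of all 20448 tested probes were called in these directions. Among the 6, those of Bche, Ttyh1 A_55_P2111508 and A_55_P2111513, and Dpysl4 A_55_P1988413 passed the low-signal filter through their fetal signal alone. Their place among the tested probes thus depended on the difference itself, and the count is no support for it. With Benjamini-Hochberg adjustment 11 of the 14 were called, against 30.0% of all probes. The arrays of the populations did not overlap for 7 probes with the fetal and 5 with the adult basal signal on top, as was the case for 34.1% and 35.0% of all probes (69.0% in all). Because the genes were chosen with this contrast in view, these counts describe them, and no p is given for a single member. In RNA of sorted populations, fewer cells of a type and less RNA per cell cannot be told apart.

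**Figure D1:**
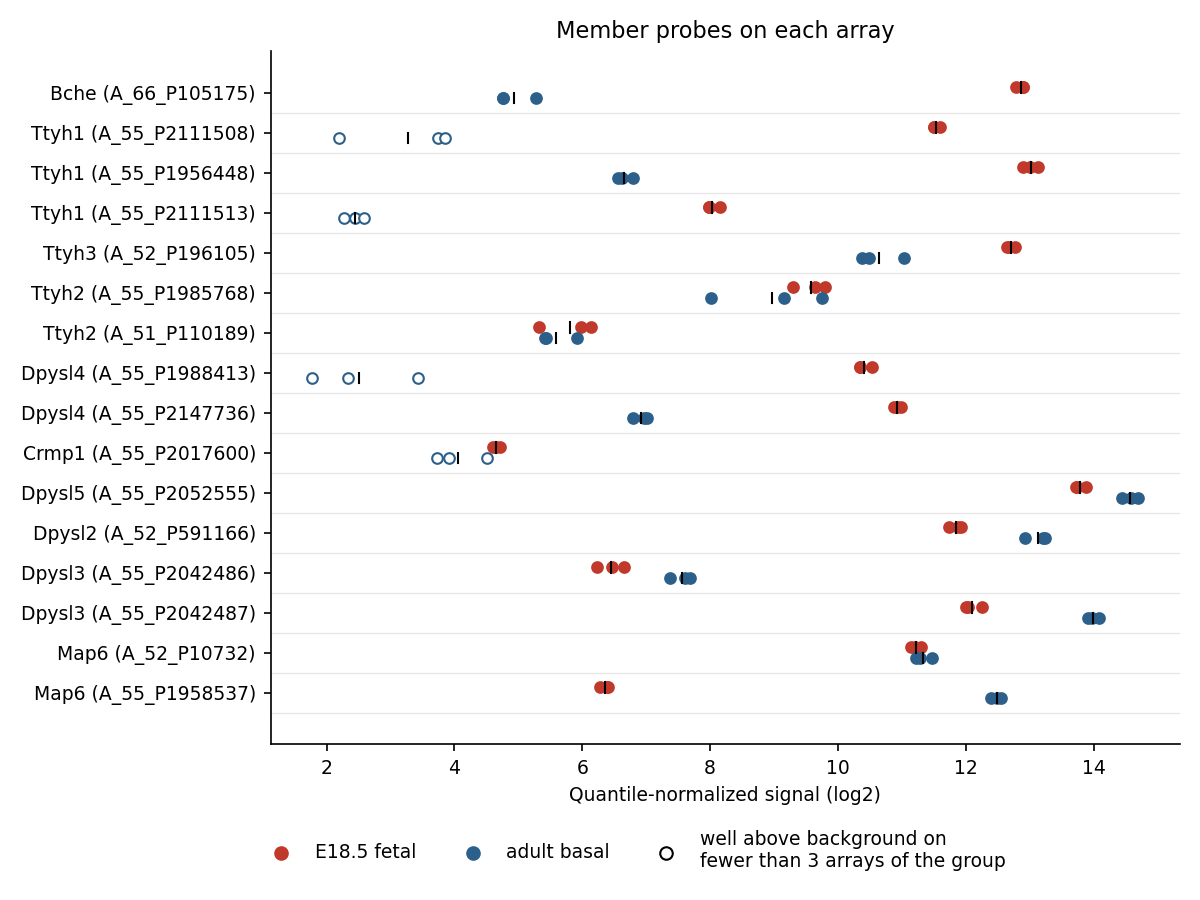
Quantile-normalized log2 signal (x axis) of each of the 16 member probes (rows) on the 3 E18.5 fetal arrays (red) and the 3 adult basal arrays (blue), with the mean as a black tick. Open points mark a population in which the probe was well above background on fewer than 3 arrays. The populations lie far apart for Bche, Ttyh1, Dpysl4 and 1 Map6 probe, and overlap for Ttyh2 and the other Map6 probe.

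Among the membrane and secreted proteins, Bche, the plasma and tissue enzyme that hydrolyzes butyrylcholine and succinylcholine, had 1 probe. Its log2 signal was 12.89, 12.90 and 12.79 on fetal arrays 1 to 3 and 5.28, 4.76 and 4.76 on adult basal arrays 1 to 3. All fetal arrays were bright and all adult basal arrays dim, though still well above background. The difference was 7.93 ± 0.16 (log2, SE, n = 3 and 3), or 243-fold, the 2nd largest in the fetal direction of 20186 tested probes that were well above background on at least 1 array of each population. Over all 20448 tested probes it was the 8th largest. These ranks only describe a gene chosen with the contrast known. The size of the difference depended on the processing. With an offset of 16 before log2 the difference was 7.32, and with a normexp correction it was 6.40. The normexp setting changed the spot intensity, the background correction and the offset together, so its shift cannot be put down to any of them alone.

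Ttyh1, the tweety protein most closely tied to neural stem and glial cells, was read by 3 probes. The brightest, A_55_P1956448, gave 12.90, 13.13 and 13.01 in fetal cells and 6.62, 6.56 and 6.80 in adult basal cells. With a fetal mean of 13.01 ± 0.12 and an adult basal mean of 6.66 ± 0.12 (SD, n = 3 each), the difference was 6.35 ± 0.11 (log2, SE), or 81.5-fold. A_55_P2111508 gave 11.51, 11.50 and 11.60 in fetal cells and 2.20, 3.75 and 3.85 in adult basal cells, where no array was well above background. Its signal was therefore at least 217-fold higher in fetal cells. This bound compares the fetal mean with, on each adult basal array, the higher of the probe's own value and the dimmest signal that counted as well above background there. A_55_P2111513, the dimmest, gave 7.98, 7.98 and 8.15 against 2.45, 2.28 and 2.59, and was at least 19.2-fold higher in fetal cells. All 3 probes therefore separated the populations in the same direction, but the size they gave differed. Under the normexp correction their fitted differences were 5.62, 5.34 and 2.25 in the order given, the last of them and that of A_55_P2111508 below the bounds of the main setting (4.26 and 7.76 on the log2 scale). With an offset of 16 before log2 they were 6.14, 6.82 and 3.70, and A_55_P2111513 and A_55_P2111508 again lay below these bounds.

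Ttyh3, a tweety protein found in many tissues, was bright in both populations. Its probe gave 12.77, 12.65 and 12.68 in fetal cells and 11.04, 10.38 and 10.49 in adult basal cells, a difference of 2.06 ± 0.18 (log2, SE) or 4.18-fold. The arrays did not overlap, and adult basal array 1 lay above the other adult arrays. The probe was called with Benjamini-Hochberg but not with Holm adjustment. Ttyh2, the remaining member of the family, did not separate the populations. Its brighter probe, A_55_P1985768, gave 9.79, 9.30 and 9.64 in fetal cells and 9.75, 8.01 and 9.16 in adult basal cells. The difference of 0.61 ± 0.41 (log2, SE) rested mainly on adult basal array 2, and without that array it was 0.12. The other probe, A_51_P110189, gave 6.13, 5.33 and 5.98 against 5.92, 5.42 and 5.44, and was below the low-signal filter in both populations. Ordered by the difference of the brightest probe, the family therefore ran from Ttyh1 through Ttyh3 to Ttyh2.

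Among the collapsin response mediator proteins, Dpysl4 (CRMP3) was the member with a higher signal in fetal cells that passed the filter. A_55_P2147736 gave 10.92, 10.87 and 10.98 in fetal cells and 7.01, 6.79 and 6.97 in adult basal cells, a difference of 4.0 ± 0.10 (log2, SE) or 16-fold. A_55_P1988413 gave 10.35, 10.35 and 10.53 in fetal cells and 2.34, 3.43 and 1.77 in adult basal cells, where again no array was well above background. By that probe the fetal signal was at least 99.2-fold higher. Both probes put every fetal array above every adult basal array by several log2 units. Under the normexp correction the fitted differences were 3.39 and 4.43 in the order given, and with an offset of 16 before log2 they were 3.83 and 5.95, so the second lay below the bound of the main setting (6.63 on the log2 scale) in both cases.

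Dpysl3 (CRMP4), which also binds actin, went the other way. A_55_P2042487 gave 12.25, 12.01 and 12.04 in fetal cells and 14.09, 13.91 and 13.97 in adult basal cells. The difference was -1.89 ± 0.11 (log2, SE), 3.71-fold in favor of adult basal cells. The dimmer A_55_P2042486 gave 6.46, 6.23 and 6.65 against 7.68, 7.61 and 7.38, a difference of -1.10 ± 0.14 (log2, SE). Dpysl2 (CRMP2), the family member best known for tubulin binding and axon specification, was also higher in adult basal cells. Its signals were 11.93, 11.88 and 11.73 in fetal and 12.92, 13.21 and 13.24 in adult basal cells, a difference of -1.28 ± 0.13 (log2, SE) or 2.43-fold. The populations did not overlap for either gene. The brighter Dpysl3 probe was called with Holm adjustment, whereas the dimmer Dpysl3 probe and that of Dpysl2 were called with Benjamini-Hochberg adjustment alone. The dimmer Dpysl3 probe fell short of the 2-fold limit under normexp (-0.72) and with the offset of 16 (-0.98).

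Dpysl5 (CRMP5) was bright on every array, with 13.74, 13.73 and 13.88 in fetal and 14.58, 14.44 and 14.70 in adult basal cells. The difference, -0.79 ± 0.11 (log2, SE), was larger than the spread of either population but below the 2-fold limit. Crmp1 was dim throughout. Its signals were 4.72, 4.65 and 4.60 in fetal cells, well above background on all 3 arrays, and 4.51, 3.73 and 3.91 in adult basal cells, well above background on 1 of 3. It did not pass the low-signal filter and was not tested. With Holm adjustment the family thus had Dpysl4 called on the fetal side and Dpysl3 on the adult basal side, while Dpysl2 and Dpysl5 were not called and Crmp1 was not tested.

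Map6, also called STOP, was read by probes that disagreed widely. A_55_P1958537 gave 6.27, 6.41 and 6.38 in fetal cells and 12.55, 12.40 and 12.49 in adult basal cells. The difference was -6.13 ± 0.10 (log2, SE), 70-fold in favor of adult basal cells and the 22nd largest in that direction of the 20186 probes measured in both populations. Over all 20448 tested probes it was the 49th largest. Under normexp the difference was -5.30. A_52_P10732, assigned to another RefSeq transcript of the gene, gave 11.30, 11.20 and 11.14 in fetal cells and 11.29, 11.47 and 11.22 in adult basal cells. This probe did not separate the populations, with a difference of -0.11 ± 0.11 (log2, SE), and it was bright in both. The gap between the probes was 6.02 log2 units. Among the 3873 genes with at least 2 tested probes measured in both populations the median gap was 0.34, and 4 genes, Map6 included, or 0.103%, had a gap this large. Which part of the transcript each probe covers was not examined here, so the level of the gene as a whole was not settled by these arrays.

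**Figure D2:**
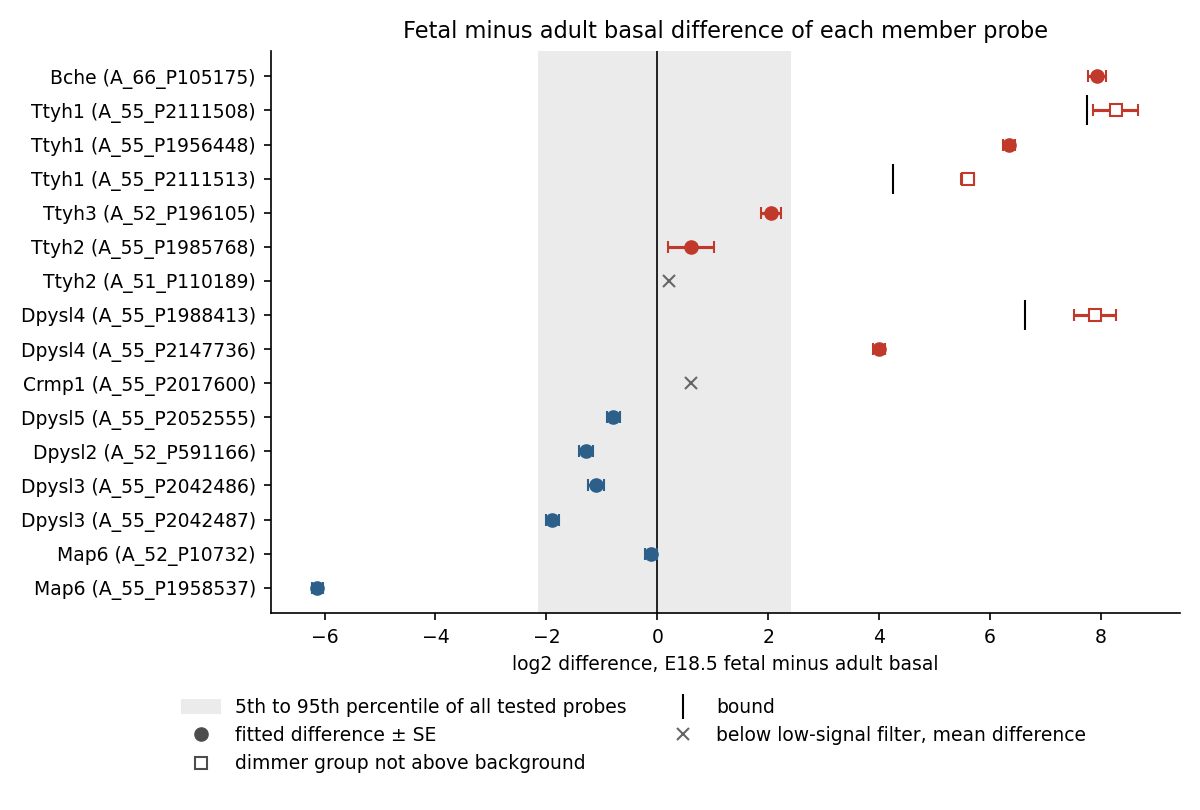
Fetal minus adult basal log2 difference (x axis) of each member probe (rows), with the SE of the limma fit as bars. The grey band spans -2.14 to 2.39, the 5th and 95th percentiles of all tested probes. Open squares mark probes not well above background in adult basal cells, with the bound as a black tick, and crosses mark the 2 probes below the low-signal filter.

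Over the 14 tested probes the median SD was 0.09 in fetal and 0.155 in adult basal cells (log2, n = 3), beside 0.12 and 0.18 over all tested probes. The adult basal SD was far wider for 3 of them, at 0.88 for the brighter Ttyh2 probe and, where the adult signal was at background, at 0.92 for Ttyh1 A_55_P2111508 and 0.84 for Dpysl4 A_55_P1988413. The arrays lay on 2 slides, with fetal 1, adult basal 1 and adult basal 3 on the first and fetal 2, fetal 3 and adult basal 2 on the other, so each slide gave its own comparison. For Bche the difference was 7.87 within the first slide and 8.09 within the second. For the brightest Ttyh1 probe it was 6.18 and 6.50, for Dpysl4 A_55_P2147736 3.93 and 4.14, for the brighter Dpysl3 probe -1.78 and -1.89, and for Map6 A_55_P1958537 -6.26 and -6.0. For these probes, all measured in both populations, the direction was the same on both slides and the sizes were similar. The 3 probes of Ttyh1 and Dpysl4 that were at background in adult basal cells are left out here, since their differences are bounds. The Map6 probe without a difference gave 0.04 and -0.30 and the brighter Ttyh2 probe 0.34 and 1.46.

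**Figure D3:**
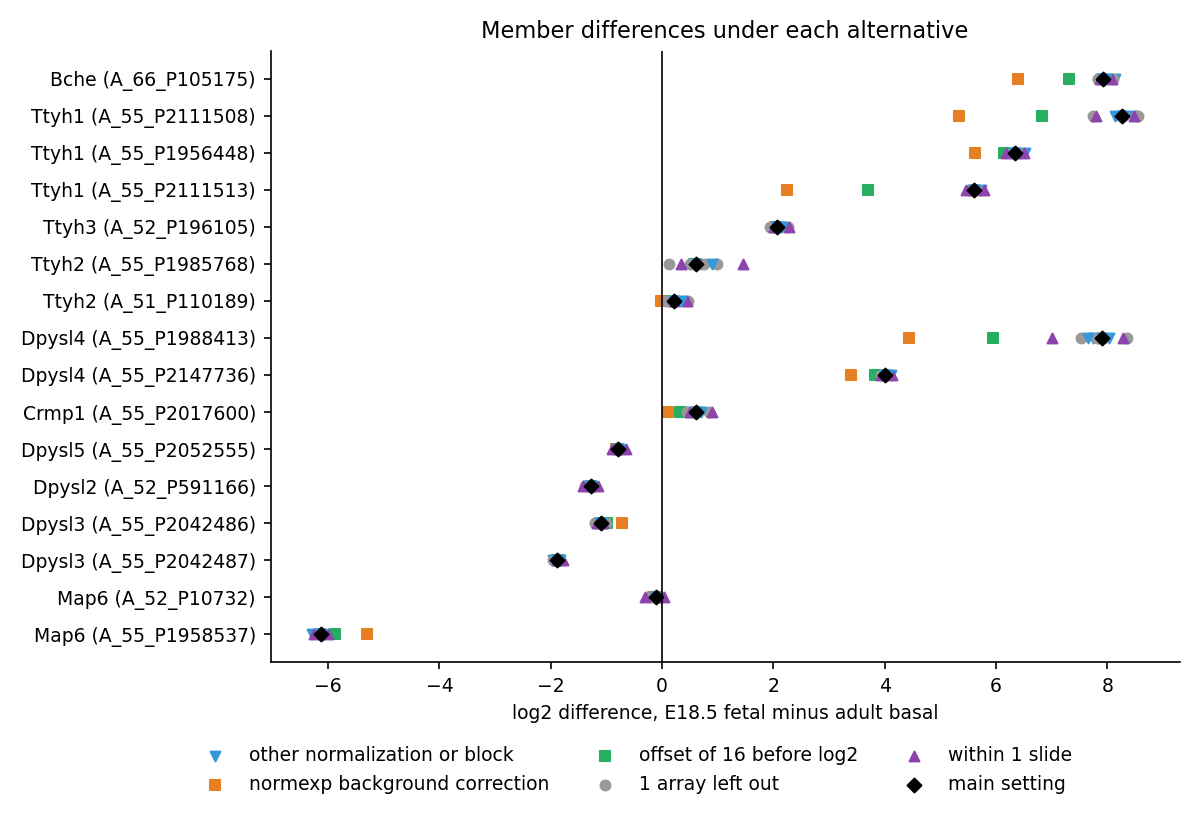
Fetal minus adult basal log2 difference (x axis) of each member probe (rows) under the main setting (black diamonds), with 1 array left out (grey), within 1 slide (purple), with normexp background correction (orange), with an offset of 16 before log2 (green) and under other normalizations or blocks (light blue). Differences that involve dim signals shrank under normexp and the offset, as for Bche from 7.93 to 6.40 and 7.32, while sign changes were limited to 1 Ttyh2 and 1 Map6 probe with differences near 0.

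Genes with the most similar profile over the 6 arrays were sought for the member probes with the largest fold in each direction among those measured in both populations, by the root mean square distance between centered log2 profiles. They were compared with 15550 genes measured in both populations. Nearest to Bche were the casein Csn1s1 (0.10), the gluconeogenic enzyme Fbp1 (0.18) and Elf5 (0.36), a transcription factor of luminal progenitors. Nearest to Map6 A_55_P1958537 were the complement gene C4b (0.15), the heparan sulfate sulfatase Sulf1 (0.15) and the cytochrome Cyp2s1 (0.22). These are descriptions over 6 arrays, set mostly by the size of the difference between the populations.

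Defining markers of nerve, glial and pigment cells were read on the same arrays. Of 14 neuronal markers 8 passed the filter, and their summed linear signal was 25961, 24322 and 20736 in fetal and 21713, 25815 and 22521 in adult basal cells. The summed neuronal signal overlapped between the populations. Stmn2, a marker of neurons with growing axons, was well above background on none of the 6 arrays, and Tubb3 gave 5.83, 5.33 and 6.79 in fetal against 6.25, 5.41 and 6.20 in adult basal cells. Snap25, a synaptic vesicle fusion protein, was the brightest of the list by its mean over the 6 arrays, with 13.67, 13.59 and 13.07 against 12.90, 13.28 and 13.04. None of the 8 tested was called with Holm adjustment in limma. With Benjamini-Hochberg adjustment 1 was called, higher in adult basal cells, and 4 had an unadjusted p under 0.05, all higher in adult basal cells.

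Of 14 Schwann cell and glial markers 12 passed and 1, the neuregulin receptor Erbb3, which is also found in luminal epithelium, was higher in fetal cells by 3.01 ± 0.15 (log2, SE, Holm-adjusted p = 0.0026 in limma). S100b, a calcium-binding protein of Schwann cells and glia, gave 6.69, 6.75 and 7.42 in fetal and 3.76, 2.24 and 4.07 in adult basal cells, where 1 of 3 arrays was well above background. Its difference of 3.60 ± 0.47 (log2, SE) rests on those adult basal values and was called with Benjamini-Hochberg adjustment only (adjusted p = 0.00038, Holm-adjusted p = 1.0, in limma). In all, 2 glial markers were called on the fetal and 1 on the adult basal side with Benjamini-Hochberg adjustment, and 2 and 5 had an unadjusted p under 0.05. Cdh19 and Foxd3 stayed near background on all 6 arrays, and Sox10, the brightest by its mean over the 6 arrays, did not differ beyond its spread (13.46, 13.55 and 13.83 against 13.76, 13.18 and 13.39). The summed glial signal was lower in fetal cells, at 29486, 32373 and 34764 against 36250, 36177 and 37071. The summed signal of 8 melanocyte markers was higher in fetal cells, at 4787, 4892 and 4885 against 2127, 2730 and 2587. Within that list Kit, which luminal progenitors also carry, was the 1 gene called of 6 tested, 5 of the 6 had an unadjusted p under 0.05 in limma in the fetal direction, Tyr was the brightest in adult basal cells and Tyrp1 stayed near background on all arrays. With Benjamini-Hochberg adjustment the pigment enzyme Dct was called as well, at 6.11, 6.81 and 7.59 in fetal and 4.90, 4.47 and 4.33 in adult basal cells (2.27 on the log2 scale, adjusted p = 0.001 in limma), with 2 of 3 adult basal arrays well above background. Kit carried most of the difference between the sums, which without it were 2913, 2994 and 3075 in fetal and 2006, 2638 and 2446 in adult basal cells. The fetal sort retained EpCAM++ cells, and the share of melanocytes left in it was not measured. Whether melanocytes contributed to the fetal signal of Bche, Ttyh1 or Dpysl4 was not tested.

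The labeled identity of the populations was visible in the epithelial markers. Of 12 basal markers all were tested and 8 were higher in adult basal cells, with a summed signal of 1248849, 1209077 and 1211753 in adult basal cells against 130486, 120477 and 111491 in fetal cells. Acta2, the smooth muscle actin of myoepithelium, was the brightest of these in adult basal cells. The intermediate filament gene Vim went the other way, at 14.93, 14.90 and 14.90 in fetal against 13.78, 13.76 and 13.76 in adult basal cells, and was called on the fetal side with Benjamini-Hochberg adjustment (1.15 on the log2 scale, adjusted p = 2.8e-05, Holm-adjusted p = 0.059, in limma). Of 15 tested luminal markers 8 were called on the fetal side. With Benjamini-Hochberg adjustment 2 were called on the adult basal side, the estrogen receptor Esr1 (-3.58 ± 0.35, log2, SE, adjusted p = 8.6e-05 in limma, well above background on 1 of 3 fetal arrays) and the keratin Krt19 (-1.22 ± 0.16, adjusted p = 0.00041). The luminal list summed to 234743, 243553 and 188662 in fetal and 131089, 126216 and 125046 in adult basal cells, with Krt18 the brightest. Fibroblast markers summed to 6326, 6523 and 8007 in fetal and 18210, 22333 and 28977 in adult basal cells, with the matrix proteoglycan Dcn the brightest in adult basal cells and 2 of 10 tested genes (Pdgfrb and Dcn) called, both in adult basal cells. With Benjamini-Hochberg adjustment 5 of the 10 were called, and 9 had an unadjusted p under 0.05 in limma, all higher in adult basal cells. The adult sort kept EpCAM+ cells and, by the methods, was depleted of stromal cells. Fibroblast signal nevertheless moved in the direction of Dpysl2, Dpysl3 and Map6 A_55_P1958537, and its part in their difference was not tested. Of the other lists, none of 8 endothelial, 11 leukocyte, 3 erythroid and 8 adipocyte markers was called with Holm adjustment in limma, while 5, 2, 0 and 0 were with Benjamini-Hochberg adjustment, all higher in adult basal cells, and 6, 3, 0 and 4 had an unadjusted p under 0.05. Of 6 tested muscle markers Acta1 was called in adult basal cells, and of 7 epidermal markers Krt10 was called in fetal and Krt15 in adult basal cells. The muscle list summed to 1625, 1616 and 1441 in fetal and 21505, 23793 and 21450 in adult basal cells. Acta1, at 9.74, 9.87 and 9.51 in fetal and 14.33, 14.49 and 14.33 in adult basal cells, carried most of this difference. The median log2 difference of the tested muscle markers was -0.19. The epidermal list summed to 4276, 3894 and 3805 in fetal and 13222, 17967 and 20161 in adult basal cells. Krt15, at 9.89, 9.80 and 9.98 in fetal and 13.33, 13.83 and 14.06 in adult basal cells, carried most of this difference. The median log2 difference of the tested epidermal markers was 0.71, toward fetal cells. With Benjamini-Hochberg adjustment 2 were called on each side, and 4 fetal and 2 adult basal had an unadjusted p under 0.05 in limma.

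**Figure D4:**
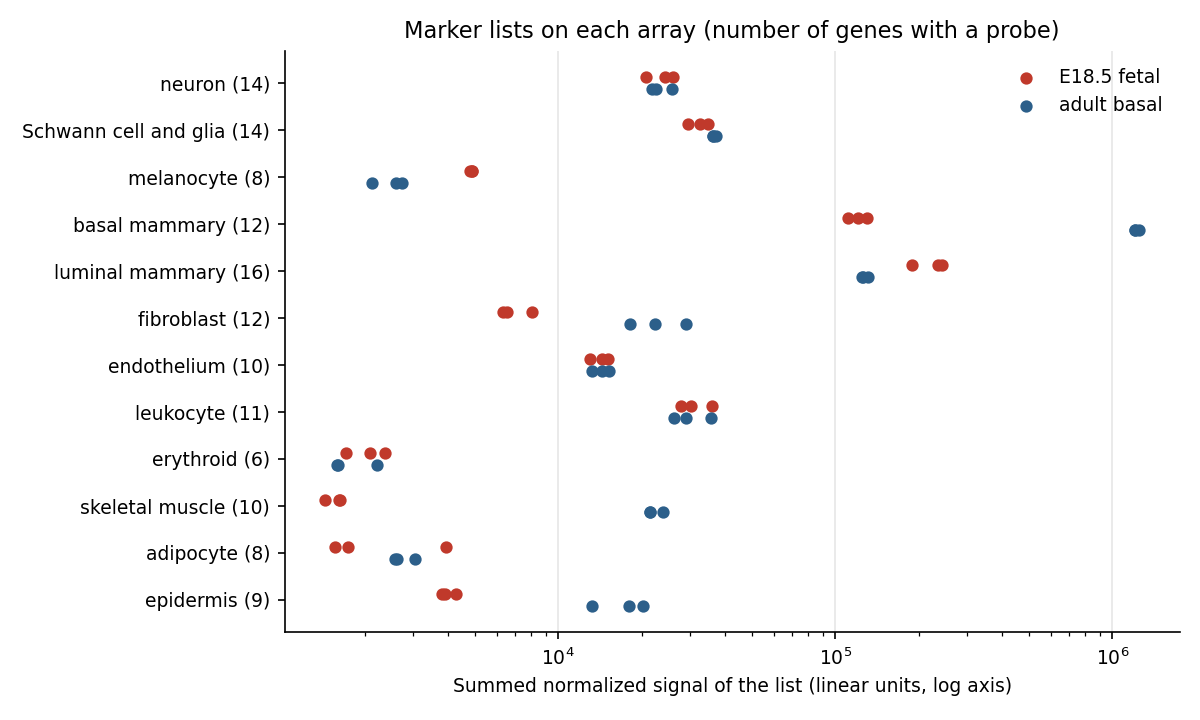
Summed normalized signal (x axis, linear units on a log axis) of each marker list (rows, with the number of genes that had a probe) on the 3 fetal arrays (red) and the 3 adult basal arrays (blue). Neuronal sums overlapped, at 20736 to 25961 in fetal and 21713 to 25815 in adult basal cells. Basal, luminal, melanocyte, fibroblast, glial, skeletal muscle and epidermal sums did not overlap. Most of the difference between the melanocyte, muscle and epidermal sums came from 1 gene each, Kit, Acta1 and Krt15.

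The wider machinery around these genes was read from 6 lists of related genes. Of 177 listed genes 172 had a probe and 140 were tested, of which 12 (8.57%) were called on the fetal side, 13 (9.29%) on the adult basal side and 115 not at all. Over all 15734 genes tested by their brightest probe these shares were 6.03% and 5.21%. The median log2 difference was -0.07 for the related genes and -0.04 for all genes. Leaving out fetal replicate 1 or fetal replicate 2 lowered the 12 to 2, and the 13 fell to 5 without fetal replicate 1 or adult basal replicate 3. Of the 25 called genes, 5 (Mapt, Stmn1, Kif5c, Sema3b and Lrrc8a) were called under every alternative.

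Microtubule genes were found on both sides, with 3 of 36 tested genes called on the fetal side and 6 on the adult basal side. With Benjamini-Hochberg adjustment these counts were 4 and 11, beside 15.8% and 13.9% of all genes. Stmn1, which binds free tubulin and promotes microtubule disassembly, gave 17.07, 17.20 and 17.17 in fetal against 13.28, 13.22 and 13.19 in adult basal cells (15.1-fold, Holm-adjusted p = 1.7e-05 in limma). Tubb2b, a beta-tubulin of developing tissue, was 28.5-fold higher in fetal cells (adjusted p = 0.0029) and the doublecortin-like kinase Dclk2 3.35-fold (adjusted p = 0.020). The adult basal side held tau and motors of axonal transport. The kinesin heavy chain Kif5c gave 5.58, 5.34 and 5.58 in fetal and 10.18, 10.35 and 10.61 in adult basal cells (29.5-fold, adjusted p = 6.4e-05). Mapt, which encodes tau, gave 8.34, 8.39 and 8.40 against 11.83, 12.15 and 12.49 (13.7-fold, adjusted p = 0.0013), and its other probes gave -3.57 and -5.02 on the log2 scale. The vesicle motor Kif1a was 6.50-fold higher in adult basal cells (adjusted p = 0.0036), and Mapre3, Tuba8 and Map1b were also called on that side. Map6d1, the close relative of Map6, was bright and did not separate the populations (0.16 ± 0.13, log2, SE), Map2 differed by 0.64 ± 0.10 without reaching the 2-fold limit, and Tubb3 by 0.03 ± 0.39.

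**Figure D5:**
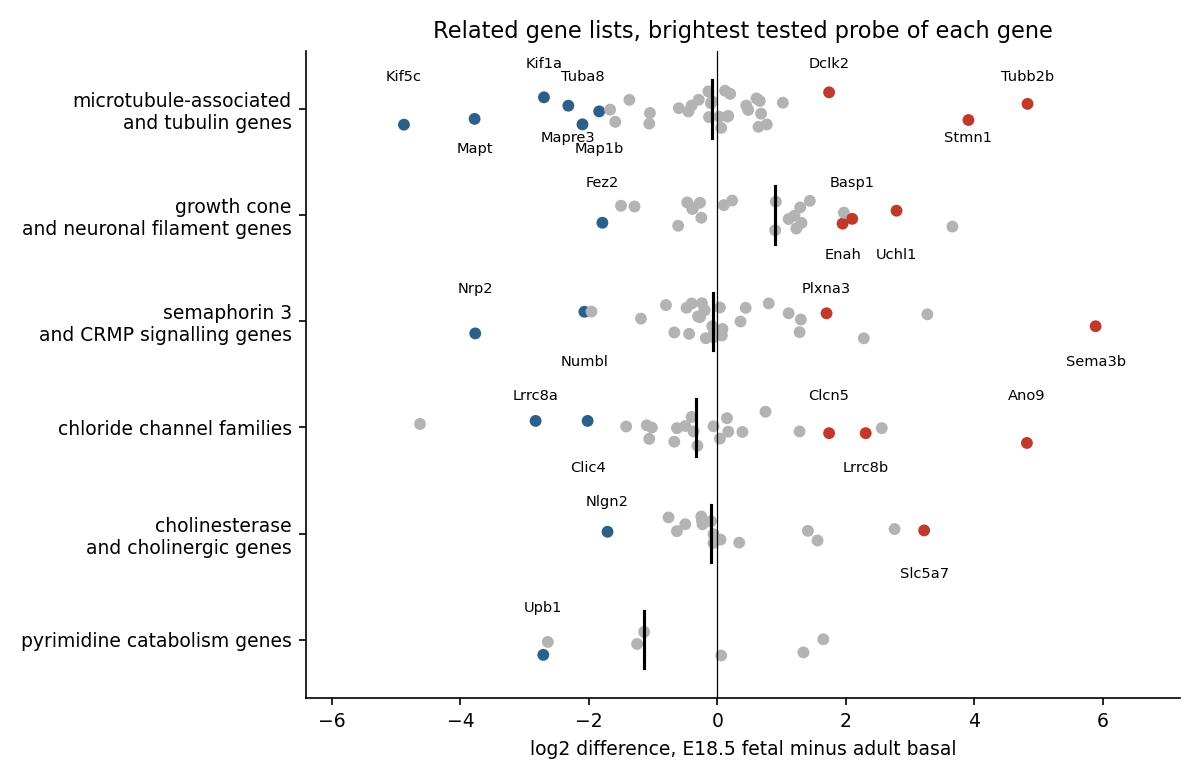
Fetal minus adult basal log2 difference (x axis) of each tested gene (points) in 6 lists of related genes (rows). Genes called with Holm adjustment are named, in red where higher in fetal and in blue where higher in adult basal cells, other genes are grey, and black bars mark list medians, from -1.14 for pyrimidine catabolism to 0.90 for growth cone genes.

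Growth cone and filament genes had a median difference of 0.90, and of 24 tested 3 were called in fetal cells and 1 in adult basal cells. With Benjamini-Hochberg adjustment these counts were 11 and 3, where 15.8% and 13.9% of all genes were called. Uchl1, a neuronal ubiquitin hydrolase, was 6.94-fold higher in fetal cells (Holm-adjusted p = 0.037 in limma), the membrane protein Basp1 4.29-fold (adjusted p = 0.033) and the actin regulator Enah 3.87-fold (adjusted p = 0.044). Fez2, a relative of the axon outgrowth protein Fez1, was 3.46-fold higher in adult basal cells (adjusted p = 0.032). Another Enah probe, at 1.08 on the log2 scale, was not called. These calls lay close to the limit, and each was lost with a replicate left out.

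The semaphorin 3 pathway, which acts through the collapsin response mediator proteins, had 2 called genes on each side of 32 tested. Among ligands, Sema3b gave 14.43, 14.28 and 14.76 in fetal and 8.51, 8.97 and 8.34 in adult basal cells (59.1-fold, Holm-adjusted p = 0.00018 in limma). Among receptors, Plxna3 was 3.25-fold higher in fetal cells (adjusted p = 0.025) and Nrp2 13.7-fold higher in adult basal cells (adjusted p = 0.038), although a dimmer Nrp2 probe differed by only -0.87 on the log2 scale and the call was lost with the mean of its probes. Nrp1, the other semaphorin 3 receptor subunit, was well above background on 0 of 3 fetal and 1 of 3 adult basal arrays. Of the called ligand and receptor genes, Sema3b and Plxna3 were thus higher in fetal cells and Nrp2 in adult basal cells. With Benjamini-Hochberg adjustment 7 genes of the list were called on the fetal side and 4 on the adult basal side. Over all genes 15.8% and 13.9% were called in these directions. The ligand Sema3d (3.27 on the log2 scale, adjusted p = 0.0016 in limma) and the receptor Plxna2 (2.28, adjusted p = 6.8e-05) were among the 7. Numbl, an endocytic adaptor of the Numb family, was 4.21-fold higher in adult basal cells (Holm-adjusted p = 0.0082 in limma). Of the kinases that phosphorylate these proteins, Cdk5 differed by 1.30 ± 0.18 and Gsk3b by -1.19 ± 0.11 (log2, SE), and neither was called with Holm adjustment (adjusted p = 1.0 and 0.23) while both were with Benjamini-Hochberg adjustment (0.0005 and 8e-05).

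Chloride channel families, which share with the tweety proteins a link to anion currents, had 3 genes called in fetal and 2 in adult basal cells of 24 tested. With Benjamini-Hochberg adjustment these counts were 5 and 7, beside 15.8% and 13.9% of all genes, and 6 and 11 had an unadjusted p under 0.05 in limma. The list median was -0.34. Subunits of the volume-regulated anion channel were split. Its obligatory subunit Lrrc8a gave 12.88, 12.89 and 12.76 in fetal and 15.55, 15.70 and 15.78 in adult basal cells (7.13-fold, Holm-adjusted p = 0.0004 in limma), whereas Lrrc8b was 4.97-fold higher in fetal cells (adjusted p = 0.0094). Ano9, of the anoctamin family, gave 7.90, 8.19 and 8.01 against 3.91, 3.17 and 2.56 (adjusted p = 0.017), and was well above background on 1 of 3 adult basal arrays. The exchanger Clcn5 was 3.35-fold higher in fetal cells (adjusted p = 0.014), but its other probes, at 1.82 and 1.1 on the log2 scale, were not called, and the call was lost with the mean of its probes. Clic4 was 4.05-fold higher in adult basal cells (adjusted p = 0.0084), with another probe at -1.33 that was not called.

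The large fetal signal of Bche was not shared by its closest relative. Ache, which encodes acetylcholinesterase, was dim, at 5.16, 5.09 and 4.62 in fetal and 5.29, 5.95 and 5.05 in adult basal cells, and did not pass the low-signal filter, and neither did Prima1, the membrane anchor of cholinesterases. Of 17 tested cholinergic genes 1 was called on each side. With Benjamini-Hochberg adjustment 4 were called in fetal and 1 in adult basal cells, beside 15.8% and 13.9% of all genes. The choline transporter Slc5a7 was 9.31-fold higher in fetal cells (Holm-adjusted p = 0.034 in limma), with 1 of 3 adult basal arrays well above background, and Nlgn2, whose extracellular part resembles a cholinesterase, was 3.26-fold higher in adult basal cells (adjusted p = 0.0054). Dpys, the liver and kidney enzyme to which the collapsin response mediator proteins are related, gave 6.53, 6.29 and 6.30 against 6.27, 6.36 and 6.30, with no separation. Of the 7 tested genes of pyrimidine catabolism 1 was called, Upb1, the enzyme of the last step, which was 6.53-fold higher in adult basal cells (adjusted p = 0.0079). With Benjamini-Hochberg adjustment 2 of the 7 were called in fetal and 4 in adult basal cells, beside 15.8% and 13.9% of all genes.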

How the data were processed

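The authors sorted the cells, hybridized the RNA and processed the scans with Feature Extraction 11.0.1.1, and the deposited spot intensity is background-subtracted, linear and not normalized between arrays. The deposited series table holds log2 values that the authors quantile normalized. Here log2 of the processed signal was averaged over spots of a probe, without control or outlier spots (104 to 326 outlier spots an array), and quantile normalized over the 6 arrays. Unversioned accessions matched 27235 of 55681 probes (48.9%) to RefSeq genes. Probes in the lowest of 3 k-means clusters (boundary 5.95) in both populations were removed. Differences were fitted with limma 3.58.1 (lmFit, eBayes) in R 4.3.3 and called where p after Holm's adjustment was no higher than 0.05 and the difference at least 2-fold. On 20440 simulated probes, this fit recovered 89 of 100 changed by 4 log2 units and 55 of 100 changed by 2. It called none of the unchanged probes. The simulation used normal noise with the same SD per probe in both populations. On the arrays the median SD was 0.12 in fetal and 0.18 in adult basal cells. With 3 arrays against 3 an exact permutation test cannot give a p below 0.10. The labels describe cDNA primed with a T7 promoter primer, whereas the methods name a whole-transcript kit, and this was not resolved.

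The members, lists and tests were chosen with earlier results of these data known. Named genes were all members, the 3 called genes of each related list with the largest difference in each direction, direct relatives or partners, the brightest and undetected markers of a list, and the 3 nearest profiles. Others were named after their values were seen. Where a related gene had several probes, the brightest was used. Alternatives were 75th percentile normalization, the deposited log2 values, normexp (offset 50), an offset of 16, other filters, Benjamini-Hochberg adjustment, eBayes with trend, each array left out, and replicate or slide as a block. Normexp was run on the median spot intensity. The restriction of ranks, nearest profiles and probe gaps to probes measured in both populations, and the melanocyte sum without Kit, were chosen after seeing the data.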

Additional observations from a re-analysis of the deposited data

How the results depend on the processing

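Of 224 member probe differences recomputed under an alternative, 190 moved by less than 1 replicate SD and 34 by more, and no called member changed sign. Leaving out 1 array, or using replicate number as a block, cannot move a difference by as much as 1 replicate SD. The 190 include these settings, so this count overstates how stable the differences were. The 34 shifts include those of dim probes under normexp and the offset, which compress low signals. Among the genes, 4 were called by their brightest probe, where 11.2% of all genes were. This count stayed between 3 and 6, and was 3 without the low-signal filter. Map6 is not among the 4, since its called probe is not its brightest.

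The counts of calls depended more on the setting. Probes called, 2270 in the main fit, were 1182 without the low-signal filter, 6133 with Benjamini-Hochberg adjustment and 945 to 1981 with 1 array left out, the lowest without fetal replicate 1. Related genes called higher in fetal cells, 12 in the main fit, were 3 without the filter, 7 over all probes with or without a gene match, 19 with eBayes trend and robust estimation, 5 with slide as a block, 33 with Benjamini-Hochberg adjustment and 2 to 9 with 1 array left out. Related genes called higher in adult basal cells, 13 in the main fit, were 7 without the filter, 30 with Benjamini-Hochberg adjustment and 5 to 14 with 1 array left out. Where no cause is given, the cause was not tested.

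Deviations of same-numbered samples correlated at -0.03, 0.09 and 0.05, and those of other fetal and adult basal combinations at -0.13 to 0.12. So few pairs cannot decide whether same-numbered samples were processed together. With replicate number as a block, 1302 probes, 4 related genes higher in fetal and 7 higher in adult basal cells were called.

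Crmp1 and the dimmer Ttyh2 probe did not pass the low-signal filter and were not tested, and 3 arrays a population limit the precision throughout.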

Other observations

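Some genes of the related and marker lists varied among the fetal arrays. Gap43, a growth cone protein, gave 8.47, 3.74 and 5.33 on fetal arrays 1 to 3, with 2 of them well above background, and stayed near background on the adult basal arrays (2.49, 2.46 and 1.62). The repulsive ligand Sema3d gave 9.39, 7.46 and 7.48 in fetal and 4.27, 4.70 and 5.55 in adult basal cells. Both were brightest on fetal array 1. The adipocyte hormone Adipoq gave 5.62, 3.99 and 8.17 and the adipocyte protease Cfd 6.44, 4.42 and 9.19 on fetal arrays 1 to 3, and both were brightest on fetal array 3. The adipocyte list summed to 1745, 1560 and 3925 in fetal and 2626, 2574 and 3033 in adult basal cells. The called member probes did not vary in this way, as for Bche, at 12.89, 12.90 and 12.79. These genes were picked after their values were seen.

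The other genes whose probes, all measured in both populations, differed by at least as much as those of Map6 were Kcne1l (0.62 and 6.71), Col9a1 (-0.08 and 5.99) and E2f7 (0.07 and 6.13), given as log2 differences of fetal minus adult basal cells.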
